A study of Mus musculus with 43 samples.

Results

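The peaks described here lie near the telomeric ends of mouse autosomes. They were taken from 12 lists of ChIP-seq peaks, 3 for each of 4 targets: di- and trimethylation of lysine 9 of histone H3 (H3K9me2 and H3K9me3), trimethylation of its lysine 27 (H3K27me3), and the H3K9 methyltransferase Setdb1 itself. A peak on chromosomes 1 to 19 was a member when its midpoint lay within 5 Mb of the mm10 end of its chromosome, which is the end away from the centromere. This chose 2038 of 43867 autosomal peaks, out of 48260 peaks in all lists and chromosomes, from a window of 95 Mb against 2368 Mb in the rest of the autosomes. The choice used position alone and no measured value.

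The series asked where repressive H3K9 methylation and its enzyme sit in mouse embryonic fibroblasts (MEFs), and what is lost when Setdb1 is depleted. The 43 libraries came from MEFs taken at E13.5 from crosses of 129/C57 dams with CAST (castaneus) sires. All cells carried a retroviral hairpin and had been selected with puromycin. Female cells were Setdb1+/+ Xist∆A/+ with the Nonsilencing hairpin, Setdb1-depleted cells were Setdb1+/gt Xist∆A/+ (1 gene-trap allele) with shSetdb1, and male cells were Setdb1+/+ X/Y with the Nonsilencing hairpin. The authors pooled 3 female, 2 Setdb1-depleted and 3 male libraries for each target before calling peaks, so each list is a single observation with no replicate error. Intervals below are 95% intervals for counting error only, and differences between kinds of cells were therefore not tested. Some limits touch every comparison. The antibody to H3K9me3 has, by the authors' account, a subtle cross-reactivity with H3K27me3. The header of the Setdb1-depleted Setdb1 list names the "Nons" hairpin where the labels give shSetdb1, and an extraction label speaks of neural stem cells where all others say MEFs.

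Mammalian chromosomes end in long arrays of the hexamer TTAGGG, which are bound by the shelterin proteins and protect the end from repair and erosion. Telomeres and the subtelomeric sequence beside them are classical sites of constitutive heterochromatin, which carries H3K9me3 and binds HP1 proteins. Setdb1 lays down H3K9me3 mainly at retrotransposons and at clusters of zinc finger genes, whereas H3K27me3 is the mark of Polycomb repressive complex 2 and covers silent developmental genes. Mouse chromosomes are acrocentric, so the far end is the only one with a long assembled arm before it. In the mm10 assembly the telomeres themselves are mostly missing: 17 of 19 autosomes end in a gap of 100 kb of unknown bases, and chromosomes 4 and 6 in a longer one. Where a short stretch of telomere repeat was assembled before that gap, reads can be placed there.

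A pair of terminal Setdb1 peaks, described further on, is printed here from the GRCm38.p6 (mm10) reference, plus strand: the peak with the highest score of the Setdb1-depleted list, and the strongest of a close group of female peaks. They are shown because neither lies on telomere repeat. The hexamer TTAGGG would stand in capitals, and neither sequence holds it.
chr4:156356911-156357019, Setdb1-depleted Setdb1 peak: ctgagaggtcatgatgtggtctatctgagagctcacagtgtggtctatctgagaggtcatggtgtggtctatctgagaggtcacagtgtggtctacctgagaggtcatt
chr9:123931566-123931673, female Setdb1 peak: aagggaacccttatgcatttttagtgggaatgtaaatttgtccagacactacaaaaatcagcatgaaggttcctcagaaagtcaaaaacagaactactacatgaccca

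The male Setdb1 list had a peak on the assembled telomere repeat of 12 autosomes, and it was the only list of Setdb1 peaks with more than 2. The caller discarded ChIP reads in some lists and control reads in another, as given below. These numbers therefore do not compare Setdb1 between kinds of cells. All 12 peaks held at least 16 TTAGGG units, and all ended within 18 to 76 bp of the last assembled base. The Setdb1-depleted list had 2 such peaks, on chromosomes 2 and 11, and both overlapped the male peak of the same end. The female list had 0 of 45 terminal peaks there, and its terminal peak nearest to a chromosome's last base lay 57450 bp before it. Peaks with at least 3 units on either strand made up 10.7% of the 112 male terminal peaks and 0.267% of the 3001 male peaks elsewhere. As a background, 0.0250% of 923771 terminal windows of 100 bases and 0.00660% of 23034966 other windows held as many units.

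At these 12 ends the pileup, the number of extended reads over the summit, ran from 60 to 192 with a median of 179.5. The 100 other male terminal peaks had a pileup of 4 to 63 with a median of 6, so that the groups overlapped only at the bottom of the first. The control was high there too. The background from whole-cell extract (WCE) implied by the fold value was 25.0 to 121 at the 12 ends. At the others its median of 0.646 was also its minimum, so that value is a floor rather than a local count. The fold itself was lower at the 12 ends, 1.57 to 2.69 with a median of 1.91 against a median of 3.66. Because the caller kept 1 read per position and strand and extended reads to 98 bp, no male pileup could exceed 196, and the tallest end peaks were close to that ceiling. The caller used 12320583 reads a side for male cells, 14405821 for Setdb1-depleted cells and 18134299 for female cells. Its down-sampling to these numbers fell on different sides. Of the reads kept per position, female ChIP was cut from 42853662 and Setdb1-depleted ChIP from 18322471, with both controls left whole. In male cells the ChIP was left whole and the control was cut from 15109145. Pileups at the repeat are thus not comparable between the lists, and the part of these cuts in the calls was not tested.

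**Figure D1:**
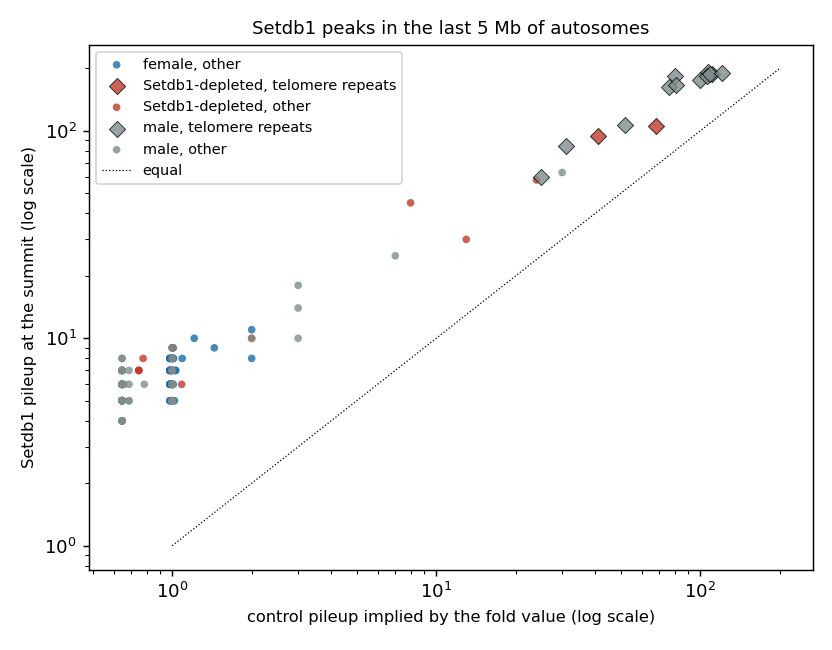
Pileup of each terminal Setdb1 peak at its summit (y axis) against the control pileup implied by its fold value (x axis), both on log scales and in extended reads. Diamonds are peaks with at least 3 telomere repeat units (12 male, 2 Setdb1-depleted, 0 female), circles are all other terminal peaks, and the dotted line marks equal values. The diamonds sit at control pileups of 25.0 and more, where 1 other peak lies.

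All 3 histone marks had peaks over the same 12 ends. H3K9me2 reached the last assembled base on 12 autosomes in the female list, 13 in the Setdb1-depleted list and 12 in the male list. H3K9me3 did so on 12, 11 and 12, and H3K27me3 on 12, 12 and 11. The ends were the same ones: 10 of the 12 ends with a male Setdb1 peak had a peak in all 9 histone lists, and the other two had one in at least 7. The exceptions were the end of chromosome 11, where the Setdb1-depleted cells had no H3K9me3 or H3K27me3 peak, and that of chromosome 10, where male cells had no H3K27me3 peak. The 7 remaining ends had a peak in at most 2 of the 9 lists, and those 2 were the H3K9me2 and H3K27me3 lists of Setdb1-depleted cells at chromosome 5.

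The 12 ends differed from the other 7 in how much repeat was assembled. They held 35 to 114 TTAGGG units in their last 1000 bases, with a median of 55. The 7 ends without a male Setdb1 peak held 0 (chromosome 4), 6 (chromosome 9), 11 (chromosome 15), 15 (chromosomes 6 and 8) and 22 units (chromosomes 5 and 17). The number of units did not overlap between these sets, which were formed by the peaks. At 11 of the 12 male summits the 31 bases around the summit occurred 1835 to 1875 times in the assembly, and on chromosome 10 they occurred 4 times. A read of pure repeat thus cannot be assigned to a single end, and the 12 ends are not 12 separate measurements. Per kb of full peak width, gap included, the female H3K9me2 list had a median of 3.25 log2 H3 reads at the 12 end peaks. At the 54 other terminal peaks it was 4.08. A median of 46.7% of the length of these 12 peaks lay in the gap, where no read can map. H3 per mappable kb was not computed, so these values do not show that H3 was lower there. The part of the gap in the calls was not tested.

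**Figure D2:**
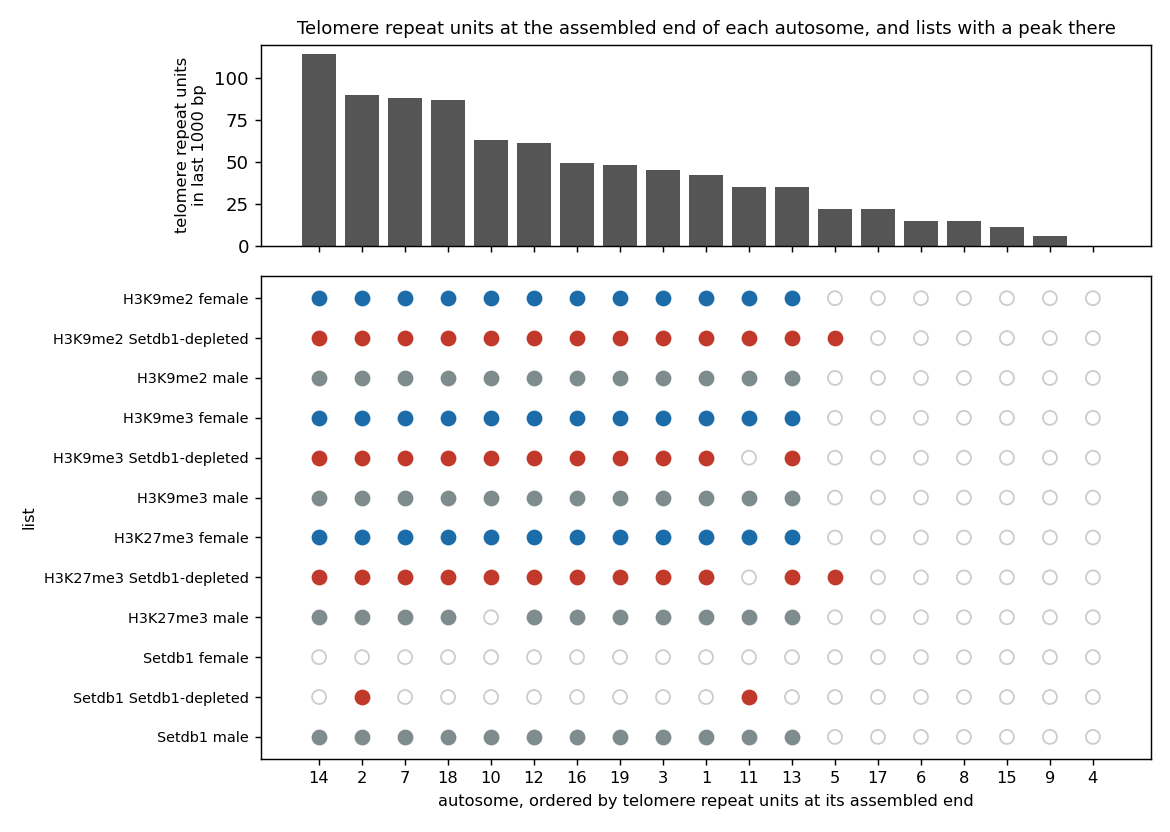
Upper panel, TTAGGG units in the last 1000 assembled bases of each autosome. Lower panel, filled circles mark a histone peak over the last assembled base or a Setdb1 peak within 100 bp of it, for each of the 12 lists, with autosomes in the same order. Filled circles stop after chromosome 13, which has 35 units, except for 2 histone lists of Setdb1-depleted cells at chromosome 5, which has 22.

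Away from the very end, H3K9 methylation and H3K27me3 followed different courses. H3K9me3 was concentrated in the last 1 Mb, where the female list held 119 peaks on all 19 autosomes, or 6.26 peaks per Mb. That was 2.66 times the density in the rest of the autosomes (interval 2.20 to 3.19). Between 1 and 5 Mb from the end the density was below the rest, at 1.61 peaks per Mb and a ratio of 0.681 (0.565 to 0.815). The Setdb1-depleted list had ratios of 2.71 (2.12 to 3.43) in the last 1 Mb and 0.829 (0.663 to 1.02) from 1 to 5 Mb, and the male list 2.62 (2.14 to 3.18) and 0.723 (0.596 to 0.870). Within the last Mb the female peaks numbered 32, 41, 26, 12 and 8 in successive steps of 0.2 Mb from the end, the first of which is mostly gap. Without the 12 peaks over the last base the female ratio in the last 1 Mb was 2.39 (1.96 to 2.89). Whether the remaining peaks hold repeat sequence was not tested. Farther in, from 5 to 30 Mb, the female density was 1.58 to 1.64 peaks per Mb, much like that from 1 to 5 Mb. The last 1 Mb was chosen as a window after the data were seen.

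H3K9me2, a sparser mark, was also densest in the last 1 Mb. Its ratios to the rest were 2.46 (1.66 to 3.50) in female, 2.71 (1.75 to 4.02) in Setdb1-depleted and 2.57 (1.76 to 3.62) in male cells. Here the peaks over the last base carried a large part. Without them the ratios were 1.51 (0.904 to 2.36), 1.30 (0.670 to 2.28) and 1.63 (1.01 to 2.50), and the first 2 of these intervals include 1.

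H3K27me3 lacked a comparable step. Its female ratio was 1.24 (0.964 to 1.57) in the last 1 Mb and 1.31 (1.16 to 1.47) from 1 to 5 Mb. In Setdb1-depleted cells the values were 1.22 (0.927 to 1.58) and 1.51 (1.34 to 1.70), and in male cells 1.56 (1.24 to 1.94) and 1.34 (1.18 to 1.51). From 1 to 5 Mb the interval excluded 1 in all 3 lists, and in the last 1 Mb it did so in the male list alone. Without the peaks over the last base the values in the last 1 Mb were 1.02 (0.775 to 1.33) in female, 0.969 (0.709 to 1.29) in Setdb1-depleted and 1.35 (1.05 to 1.71) in male cells.

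**Figure D3:**
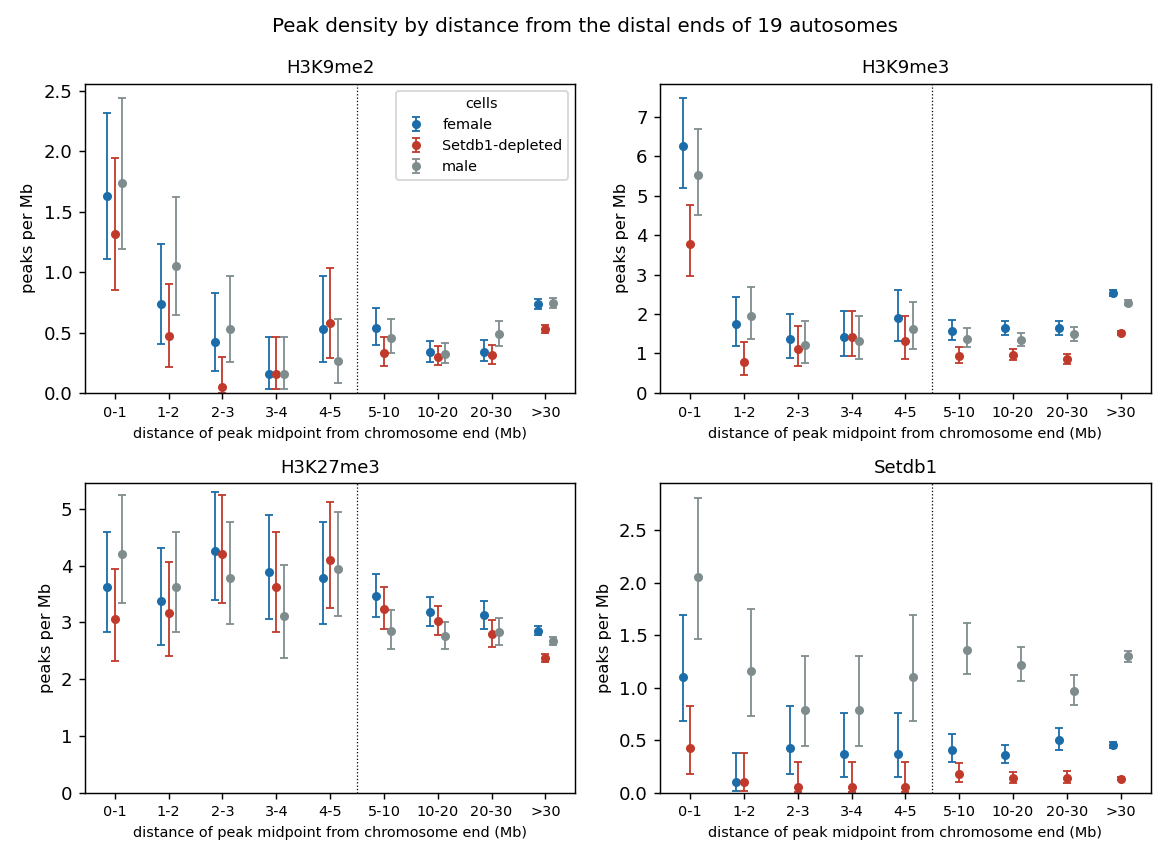
Peaks per Mb by distance of the peak midpoint from the chromosome end, for the 4 targets, with 95% Poisson intervals. The dotted line marks the 5 Mb limit. H3K9me3 stands at 6.26 peaks per Mb in the last 1 Mb of the female list and at 1.37 to 1.89 in the next 4 bins, while female H3K27me3 stays between 3.37 and 4.26 over all 5.

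Over the full 5 Mb these courses partly cancelled for H3K9 methylation. H3K9me2 had 66 female, 49 Setdb1-depleted and 71 male terminal peaks, and its density ratios of 1.05, 1.06 and 1.10 all had intervals that include 1. H3K9me3 had 241, 160 and 221 terminal peaks. Its ratio was 1.08 (0.942 to 1.23) in female, 1.21 (1.02 to 1.41) in Setdb1-depleted and 1.10 (0.959 to 1.26) in male cells. H3K27me3 had 360, 345 and 355 terminal peaks, with ratios of 1.29 (1.16 to 1.44), 1.45 (1.30 to 1.62) and 1.38 (1.24 to 1.54). Only for H3K27me3 did the interval exclude 1 in all 3 lists.

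The share of bases covered told the same for H3K27me3. In the female list its peaks covered 13.4% of the terminal windows and 10.3% of the rest. The Setdb1-depleted list gave 11.4% and 7.93%, and the male list 12.6% and 9.27%. H3K9me3 covered 5.10% against 4.19% in female cells, but chromosome 2 carried that difference, and without it the ratio of the shares was 1.01 in place of 1.22. After depletion the mark covered 2.99% against 2.74%, and its male list 3.81% against 3.86%. The shares of H3K9me2 were 1.27% and 1.16% in the female list, 1.04% and 0.852% in the Setdb1-depleted list and 1.31% and 1.28% in the male list. Setdb1 peaks, which are narrow, covered at most 0.0157% of the terminal windows.

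Peak width did not set the terminal windows apart. The median was 15 kb for H3K9me2 and H3K9me3 and 25 kb for H3K27me3, in the windows and in the rest, in all 3 kinds of cells. Bounds fall on a 5 kb grid, which limits how finely medians can differ. Setdb1 peaks had a terminal median of 101 bp in female, 101 bp in Setdb1-depleted and 98 bp in male cells, against 101, 97 and 99 bp elsewhere. The last 5 Mb differed from the rest in sequence and gene content. It had 43.8% G+C against 41.9%, 31.2% against 33.6% of bases masked as repeats, and 11.8 protein-coding genes per Mb against 8.31.

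Peak numbers varied between chromosome ends. H3K27me3 was densest at the ends of chromosomes 11 (37 female peaks, or 7.4 per Mb), 7 (33) and 9 (32), and sparsest at those of chromosomes 17 (3), 3 (4) and 18 (5). The same 3 chromosomes were lowest in all 3 lists. H3K9me3 was densest in the female list at chromosomes 12 (24 peaks), 10 (22) and 17 (20), and sparsest at 15 (4), 19 (4) and 6 (6). H3K9me2 was highest at chromosomes 14 (8 peaks), 2 (7) and 13 (7), and it had no terminal peak on chromosomes 4 and 15 in any list. Across the 19 windows the density of H3K27me3 peaks went with G+C content, with Pearson's r of 0.85, 0.83 and 0.85 and Spearman's rho of 0.88, 0.90 and 0.88 in female, Setdb1-depleted and male cells. For H3K9me3 the values were negative, at r = -0.46, -0.36 and -0.57. These are descriptions over 19 windows that share libraries, depth and base composition.

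**Figure D4:**
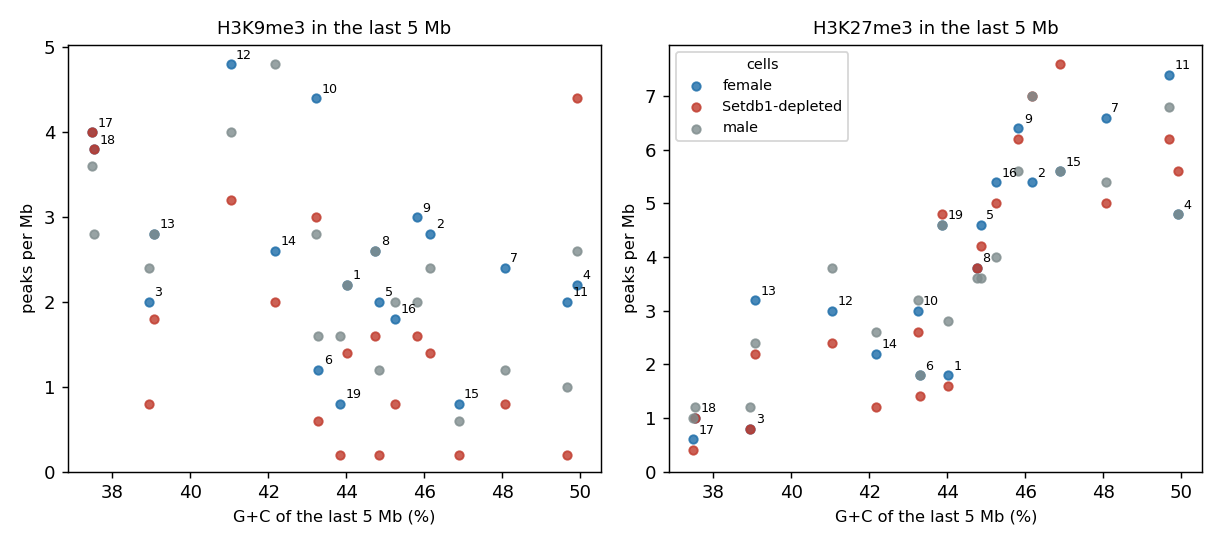
Peaks per Mb in the last 5 Mb of each autosome against the G+C content of that window, for H3K9me3 (left) and H3K27me3 (right). Points are chromosomes, coloured by kind of cell, and numbers name the chromosome at its female point. H3K27me3 runs from 0.6 female peaks per Mb on chromosome 17 to 7.4 on chromosome 11.

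H3K27me3 lay over the starts of many developmental genes at the ends. The start of 286 of 1122 terminal protein-coding genes (25.5%) lay in a female H3K27me3 peak, against 20.1% of 19685 genes elsewhere, and the Setdb1-depleted and male lists held 277 and 279. Of 28 developmental transcription factor genes on the list used here, 24 started in a female peak, 25 in a Setdb1-depleted one and 23 in a male one. Of the 202 genes of this list elsewhere on the autosomes, 156 (77.2%), 156 and 153 did so. The widest terminal peak of the mark, 430 kb in female and male cells at chr15:102725001-103155000, spanned the HoxC cluster, whose genes pattern the body axis, from Hoxc13 to Smug1. In Setdb1-depleted cells the peak there was 315 kb and ended at Hoxc4. All 9 HoxC genes of the list started in an H3K27me3 peak in every kind of cell.

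The next widest female peak, of 215 kb at chr4:154625001-154840000, took in the start of Prdm16, a regulator of brown fat and haematopoietic cells, and ran on to Ttc34. The one after it, of 155 kb at chr19:59090001-59245000, overlapped Vax1, a homeobox gene of the ventral forebrain and eye, and Kcnk18. Pdx1 and Cdx2 on chromosome 5, factors of pancreas and intestine, Isl1 on chromosome 13, Zic2 and Zic5 on chromosome 14, Sp8 on chromosome 12, Gli1 on chromosome 10 and Emx2 on chromosome 19 started in H3K27me3 in all 3 lists. Sox18 did so in female and Setdb1-depleted cells, Hes3 in Setdb1-depleted cells alone, and Sox5, Foxk2 and Prdm15 in none. None of the 4 fibroblast genes there (Actg1, Timp2, P4hb and Myl6, for cytoskeleton and matrix) started in a peak of any list.

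The imprinted cluster at the end of chromosome 7 was an H3K27me3 site in part. Of 20 genes in its list, 8 started in a female peak, 7 in a Setdb1-depleted one and 8 in a male one. Of all 1122 terminal protein-coding genes, 25.5%, 24.7% and 24.9% did so. Igf2, a paternally expressed growth factor, and Cdkn1c, a maternally expressed cell cycle inhibitor, were among those in all 3 lists, as were Ascl2, Kcnq1, Slc22a18, Phlda2 and Osbpl5. Th, the enzyme of catecholamine synthesis, was in the female and male lists only. The widest female H3K27me3 peak with no overlap in Setdb1-depleted cells lay within Kcnq1, at chr7:143165001-143255000 (90 kb), and was followed by 1 at Ptchd3, chr11:121810001-121880000 (70 kb), and 1 from Tdrd1 to Vwa2, chr19:56825001-56890000 (65 kb). Among its H3K9me3 peaks the cluster had 1 gene start, Tnfrsf23 in female cells.

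H3K9me3 covered gene clusters of another kind. The 3 widest female peaks, of 400, 220 and 155 kb, stood side by side at chr2:177205001-178090000, a cluster of zinc finger genes from Gm14410 to Zfp931. The stretch is bounded by these female peaks, so its choice favours the female list. Together with a smaller peak they covered 785 kb, or 88.7%, of that stretch. The Setdb1-depleted list covered 135 kb of it (15.3%) and the male list 175 kb (19.8%). H3K9me2 behaved otherwise, with 280 kb in female, 340 kb in Setdb1-depleted and 235 kb in male cells, and H3K27me3 covered 145, 145 and 350 kb. The cluster is also the place of the widest H3K9me2 peaks, of 190 kb in female, 105 kb in Setdb1-depleted and 210 kb in male cells. Setdb1 peaks stood in the stretch too, 4 in the female list, 1 in the Setdb1-depleted list and 3 in the male list. Of 16 terminal genes named as zinc finger proteins, Zfp931, Zfp970, Zfp971 and Zfp972 of this cluster started in a female H3K9me3 peak. Zfp931 and Zfp971 did so in Setdb1-depleted cells as well. The male list, without depletion, held the starts of Zfp931, Zfp971 and Zfp972. Among 399 such genes elsewhere on the autosomes, 36 (9.02%) started in a female H3K9me3 peak. The counts there were 24 after depletion and 36 for males. The genes of the cluster are near copies of each other, so reads may be placed on the wrong copy.

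Receptor and antibody gene clusters followed. Of 70 terminal olfactory receptor genes, on chromosomes 7 and 10, 9 started in a female H3K9me3 peak, 8 in a Setdb1-depleted one and 4 in a male one. Of 1058 olfactory receptor genes elsewhere on the autosomes, 114 (10.8%), 124 and 134 did so. For all 1122 terminal protein-coding genes the counts were 35, 17 and 22, or 3.12%, 1.52% and 1.96%. Among the 6 vomeronasal receptor genes there, Vmn2r87 started in H3K9me2 and H3K9me3 in all 3 lists. Of 34 V segments of the immunoglobulin heavy chain on chromosome 12, 11 started in H3K9me3 in the female list, 16 in the Setdb1-depleted list and 1 in the male list. The 5 Mb limit cuts this cluster, and of its 79 segments beyond the limit 21 started in the mark in the female, 32 in the Setdb1-depleted and 24 in the male list. The widest terminal H3K9me3 peak of Setdb1-depleted cells, 145 kb at chr12:115490001-115635000, lies there. Several of these segments are near copies too. None of the 28 developmental factors started in H3K9me3 in any list.

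In Setdb1-depleted cells the terminal windows held fewer H3K9me3 peaks, as did the rest. The terminal count fell by 33.6%, from 241 to 160, and the count elsewhere fell by 40.7%. The covered share went the other way, as it fell by 41.3% in the windows and fell by 34.7% elsewhere. Chromosome 2 weighs on this, as its window was covered to 20.2% in female and to 4.4% in Setdb1-depleted cells. Male cells, without depletion, also differed from female ones by -25.4% in the windows and -7.91% elsewhere. The odds ratio for a peak to be terminal, Setdb1-depleted over female, was 1.12 (0.907 to 1.38). Counts were lower on 16 of 19 chromosome ends, equal on 2 and higher on 1. That 1 was chromosome 4, where 11 female and 13 male peaks stood against 22 in Setdb1-depleted cells, and without it the odds ratio was 1.00. All 22 lay in a stretch of 965 kb at chr4:152670001-153635000, which holds a single protein-coding gene, Ajap1, and in which the female list had 6 H3K9me3 peaks and the male list 8. They covered 340 kb of it, against 125 kb in each of the female and male lists. The stretch is bounded by these 22 peaks, so its choice favours the Setdb1-depleted list. Of the 22 peaks, 7 overlapped a female H3K9me3 peak and 0 an H3K27me3 peak.

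The number of H3K9me2 peaks fell by 25.8% in the windows and by 26.9% outside, with an odds ratio of 1.02 (0.681 to 1.50). H3K27me3 fell by 4.17% and by 14.7%, with an odds ratio of 1.12 (0.962 to 1.31), and its covered share fell by 14.6% and fell by 23.2%. Setdb1 had 45 terminal peaks before and 13 after, so that the count fell by 71.1%, while elsewhere it fell by 69.4%, with an odds ratio of 0.944 (0.461 to 1.81). None of the 4 intervals excluded 1, and a change that differed by the bounds given would not have been seen.

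Whether the same places were marked is a separate question, and here terminal peaks differed from the rest for H3K9me2 and H3K27me3. Of 66 terminal female H3K9me2 peaks, 37 (56.1%) had no overlap in the Setdb1-depleted list, against 73.9% in the rest and 73.2% over all autosomes. The odds ratio was 0.452 (0.266 to 0.772). All 12 peaks over the last assembled base were found again, and without them the terminal share was 68.5% (54.4 to 80.5), an interval that includes the share in the rest. Of 360 terminal female H3K27me3 peaks, 102 (28.3%) had no overlap, against 41.9% in the rest and 41.2% over all, with an odds ratio of 0.549 (0.430 to 0.697). Without the end peaks this share was 29.0% (24.3 to 34.1). It was 39.1% (27.6 to 51.6) in the last 1 Mb, an interval that includes the share in the rest, and 25.8% (20.8 to 31.2) from 1 to 5 Mb. Those without overlap were narrower, with a median width of 20 kb against 30 kb for the 258 found again.

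H3K9me3 differed less. Of 241 terminal female peaks, 146 (60.6%) had no overlap in the Setdb1-depleted list, against 66.9% in the rest and 66.7% over all, and the odds ratio was 0.759 (0.579 to 1.00). The share was 57.1% (47.7 to 66.2) in the last 1 Mb and 63.9% (54.7 to 72.4) from 1 to 5 Mb. The widest peaks without overlap were the 400 and 220 kb peaks of the chromosome 2 cluster and 1 of 60 kb at chr2:181895001-181955000, with no gene. Of H3K9me2 they were 1 of 35 kb from Tmem267 to Ccl28 at chr13:119590001-119625000, 1 of 30 kb at Socs6 on chromosome 18 and 1 of 25 kb at chr1:194395001-194420000. Read the other way, 38.8% of 49 terminal Setdb1-depleted H3K9me2 peaks had no overlap in the female list (62.0% over all autosomes), 41.3% of 160 H3K9me3 peaks (43.1%) and 20.3% of 345 H3K27me3 peaks (25.5%).

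**Figure D5:**
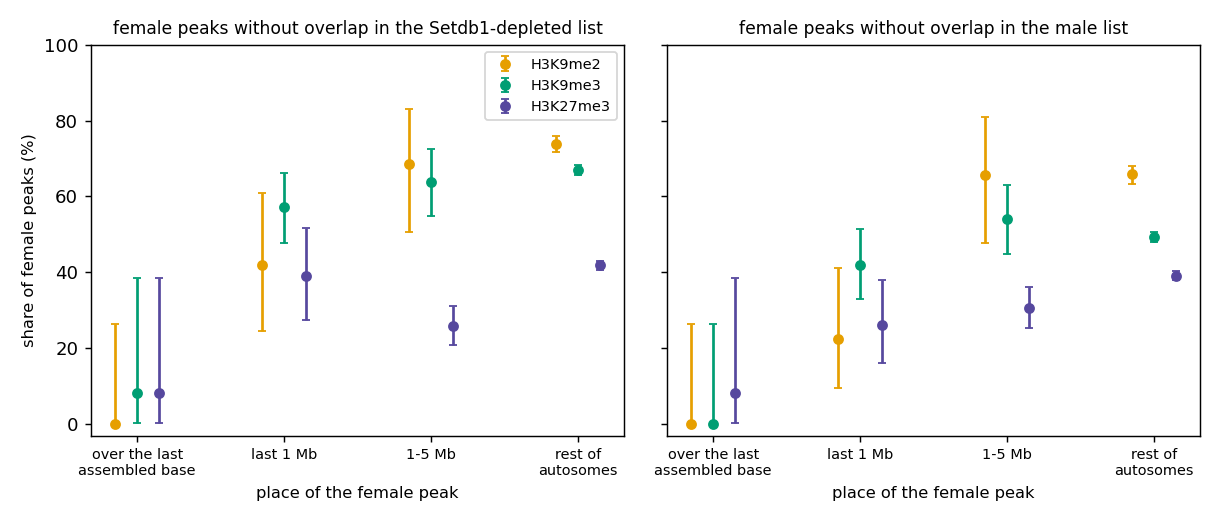
Share of female peaks with no overlap in the Setdb1-depleted list (left) and the male list (right), by place of the female peak, for the 3 histone marks, with 95% Clopper-Pearson intervals. The 12 peaks over the last assembled base are a subset of those in the last 1 Mb, and at most 1 of the 12 lacked overlap for any mark. Elsewhere the shares run from 22.6% to 73.9%.

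The comparison with male cells gives the size of such differences without depletion. No overlap in the male list was found for 45.5% of the 66 terminal female H3K9me2 peaks (65.0% over all autosomes), 48.1% of the 241 H3K9me3 peaks (49.3%) and 29.7% of the 360 H3K27me3 peaks (38.7%). The terminal counts of male cells differed from the female ones by 7.58% for H3K9me2, -8.30% for H3K9me3 and -1.39% for H3K27me3, with odds ratios of 1.06 (0.739 to 1.51), 1.02 (0.846 to 1.24) and 1.07 (0.918 to 1.25). For H3K27me3 the share without overlap in male cells was thus as large as that in Setdb1-depleted cells. Sex, Xist allele, embryo and list depth cannot be told apart in it.

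Terminal Setdb1 peaks were mostly weak and were found in a single list. None of the 45 female peaks overlapped a Setdb1-depleted or a male one, where 98.1% and 95.2% of all female autosomal peaks had no such overlap, and none of the 13 Setdb1-depleted ones overlapped a female one (93.8%). Peaks shared between the Setdb1-depleted and male lists included those on the repeat of chromosomes 2 and 11. The median pileup was 7 in the female, 9 in the Setdb1-depleted and 6 in the male list, and 7, 7 and 6 elsewhere. By place, 27 of the female ones were intergenic and 18 in introns, and of the Setdb1-depleted ones 8 and 5.

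The female list held 21 terminal peaks in its last 1 Mb, a ratio of 2.47 (1.52 to 3.80). Chromosome 9 had 8 of them, and 7 of these stood within 6.96 kb at chr9:123928971-123935934. They lay between 26190 and 32952 bp from Ccr1, a chemokine receptor gene. The 31 bases around each of the 7 summits had 1 copy in the assembly, and the sequence between them was not examined. Without chromosome 9 the ratio was 1.60 (0.850 to 2.75). The strongest female peaks were at chr5:148405048-148405148 near Slc7a1, an amino acid transporter gene (pileup 10), at chr9:123931566-123931673 in that group (pileup 9, printed above) and at chr2:177911591-177911691 in an intron of Zfp972 (pileup 9). Only 9 and 10 of the reads that the caller kept after down-sampling thus stand behind them. The highest score of the Setdb1-depleted list was at chr4:156356911-156357019, with a pileup of 45 and a fold of 5.11, 1097 bp before the last assembled base of chromosome 4, which has no TTAGGG unit near its end. The reference marks its sequence, printed above, as repeat. The next was the peak on the chromosome 11 repeat (pileup 94, fold 2.26). A further peak of that list lay in an intron of Emx2, a homeobox gene of the cortex and kidney, inside an H3K27me3 peak (chr19:59462450-59462581, pileup 7). The highest male scores were on the repeat of chromosomes 13 (pileup 183, fold 2.27), 14 (162, 2.12) and 18 (166, 2.04).

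Terminal Setdb1 peaks lay in a histone mark in a minority of cases in each list. A peak of any of the 3 marks of the same cells overlapped 12 of 45 female (26.7%, interval 14.6 to 41.9), 6 of 13 Setdb1-depleted (46.2%, 19.2 to 74.9) and 35 of 112 male ones (31.3%, 22.8 to 40.7). Elsewhere 222 of 1059, 93 of 324 (28.7%) and 719 of 3001 (24.0%) did so, and each of these shares lies inside the terminal interval. H3K9me3 held 10 female, 3 Setdb1-depleted and 28 male terminal peaks. Among the marks themselves, 45 of 66 terminal female H3K9me2 peaks (68.2%, 55.6 to 79.1) overlapped an H3K9me3 peak, against 47.9% in the rest. The values were 49.0% against 33.6% in Setdb1-depleted cells and 63.4% against 45.7% in male cells. H3K9me3 peaks overlapped an H3K27me3 peak in 22.8% of the 241 terminal cases in female cells (17.7 to 28.6), against 17.3% elsewhere. The cross-reactivity of the antibody bears on that value. Peaks over the last assembled base, where the marks met on the same ends, count in the shares between marks and raise the terminal ones. The 12 male and 2 Setdb1-depleted Setdb1 peaks on the repeat all lay in a histone peak too, and raise the terminal Setdb1 shares of those lists. None of these shares was computed without the peaks at the ends.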

How the data were processed

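Libraries were aligned by the authors with Bowtie2 to mm10 with strain differences masked, after base calling with CASAVA 1.4, and pooled by kind of cell. Broad histone peaks were called by the authors in Seqmonk against H3 (settings for 10 kb fragments, p below 1.0e-05). Those deposited lists give bounds and log2 H3 read numbers of the 3 pools. Setdb1 peaks were called by the authors with MACS2 2.1.0.20140616 against WCE, with down-sampling and p below 0.001. Those deposited lists give a pileup (signal, extended reads), a fold (ratio to control), and −log10 p, with the ChIP libraries pooled. The series holds only a single WCE library for each kind of cell, so the control side is not a pool. Their −log10 q was not used. How reads with several placements were treated is not given in the sources used here. Total Setdb1 ChIP reads were 57400561 (female), 22386381 (Setdb1-depleted) and 16482475 (male). The depth of the histone pools is unknown.

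From the lists, midpoints, densities (peaks per Mb of the full mm10 length), covered shares (peaks clipped at the 5 Mb limit) and overlaps (at least 1 bp) were computed with Python 3, numpy, pandas and scipy, on GRCm38.p6 and GENCODE M21. Density ratios carry exact binomial (Clopper-Pearson) intervals, counts exact Poisson intervals and odds ratios conditional exact intervals, at 95%. The control pileup was taken as (pileup + 1) divided by fold, less 1, since MACS2 adds 1 to both. It is the background that the caller used, which has a floor, and not a count of control reads. The counting functions were tested on simulated data. No test between kinds of cells was run, since each list is 1 pool. Gene lists were read by gene start within a peak. Named items were the 3 widest terminal female peaks of each mark and the widest of the other lists, the 3 widest without overlap in Setdb1-depleted cells, the 3 terminal Setdb1 peaks with the highest −log10 p of each list, every Setdb1 peak shared between lists, genes of the fixed lists, and the 3 chromosomes with the highest and lowest densities. The telomere repeat, the last 1 Mb, the chromosome 2, chromosome 4 and chromosome 9 stretches and the Emx2 peak were singled out after their values were seen. Some sequences, peaks and genes that this rule names are not reported here. The members and lists were chosen with earlier results of these data known. Alternatives are given in the closing section.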

Additional observations from a re-analysis of the deposited data

How the results depend on the processing

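No paired analysis was possible because the deposited lists pool the replicates of each kind of cell, and for the same reason leaving out a replicate had no value either. Of 306 recomputed values, 250 stayed within the counting interval of the reported value and 54 moved outside it. In 2 more, a ratio whose reported interval excluded 1 moved outside it and turned to the other side of 1. Other ratios, whose reported interval included 1, crossed it as well, as the values below show. Counting peaks per base other than N, leaving the first 5 Mb out of the rest, merging peaks under 10 kb apart, requiring overlap of 50% and taking equal numbers of peaks from both lists moved no value outside its interval.

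Most of the moved values came from another window, and the cause was not tested. With the last 2 Mb the density ratios in female, Setdb1-depleted and male cells became 1.80, 1.86 and 2.09 for H3K9me2, and 1.71, 1.64 and 1.79 for H3K9me3. They became 1.23 for Setdb1-depleted H3K27me3, and 1.95 and 1.28 for Setdb1-depleted and male Setdb1. Covered share ratios became 1.54, 1.62 and 1.64 for H3K9me2, 1.68, 1.41 and 1.63 for H3K9me3, 1.22 for Setdb1-depleted H3K27me3, and 1.44, 2.09 and 1.40 for Setdb1. The median width of male H3K27me3 peaks became 20 kb. With the last 10 Mb the density ratio of H3K9me3 became 0.862 in female and 0.866 in male cells, that of male H3K27me3 1.22, and that of Setdb1-depleted H3K9me3 turned to 0.926. With the last 1 Mb, an alternative chosen after seeing the data, the density ratios were 2.46, 2.71 and 2.57 (H3K9me2) and 2.66, 2.71 and 2.62 (H3K9me3). They were 1.22 and 1.56 for Setdb1-depleted and male H3K27me3, and 2.47, 3.08 and 1.62 for Setdb1. Without the peaks within 100 bp of the last assembled base, the Setdb1 ratio was 2.31 (0.841 to 5.08) in Setdb1-depleted cells. In male cells it was 1.12 (0.738 to 1.63), and both intervals include 1. The odds ratio of male over female H3K27me3 in the last 1 Mb was 1.26. From 1 to 5 Mb, also chosen after seeing the data, the density ratios were 0.693, 0.650 and 0.739 for H3K9me2. They were 0.681 and 0.723 for female and male H3K9me3, and 0.706, 0.481 and 0.758 for Setdb1. The ratio of Setdb1-depleted H3K9me3 turned to 0.829.

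With stricter peaks (histone peaks of at least 20 kb, Setdb1 −log10 p of at least 5) the female H3K9me3 density ratio was 1.40 and its covered ratio 1.47, the male H3K9me3 covered ratio was 0.849, the odds ratios of male over female were 0.723 (H3K9me2) and 0.781 (H3K9me3), and 45.8% of male terminal Setdb1 peaks lay in a mark. Without chromosome 2, covered ratios were 0.823 (female H3K9me2), 0.780 (Setdb1-depleted H3K9me2) and 1.01 (female H3K9me3). Without the peaks over the last assembled base, an alternative chosen after seeing the data, the density ratio of Setdb1-depleted H3K9me2 was 0.780 and the share of terminal female H3K9me2 peaks absent from Setdb1-depleted cells was 68.5%. The 45, 13 and 112 terminal Setdb1 peaks limit what can be said of that target, as the widths of its intervals show.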
